A study of Equus caballus with 20 samples.

Results

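Extracellular vesicles of horse follicular fluid carried 7 miRNAs that are known from leukocytes or from the NF-kB response: eca-miR-146a, eca-miR-146b-5p, eca-miR-155, eca-miR-223, eca-miR-142-5p, eca-miR-142-3p and eca-miR-150, written below without the prefix for the horse. They were chosen by name from the 686 miRNA names of the table, of which 325 were above 0 in at least 1 library. All 7 were above 0, and all 7 passed the filter on low values that left 264 miRNAs for testing. NF-kB is a transcription factor that inflammatory signals switch on. In human and mouse cells it raises miR-146a and miR-155. miR-146a and its paralog miR-146b lower IRAK1 and TRAF6, signalling proteins upstream of NF-kB, and so close a feedback loop. miR-142 is a hairpin of blood cells that gives mature miRNAs from both arms, miR-223 is a miRNA of granulocytes, monocytes and platelets, and miR-150 is a miRNA of mature lymphocytes. Ovulation resembles an inflammatory reaction, with leukocytes entering the follicle wall as the follicle nears rupture.

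The 20 libraries came from follicular fluid of mares of a single breed, 19 in number and 8 to 14 years old. In all of them the follicles of 6 mm or more had been ablated on day 10 or 11 after ovulation, so that a fresh wave grew. The fluid was drawn from growing follicles of 5 stages with 4 libraries each: predeviation (18 to 20 mm across), deviation (22 to 25 mm, when the dominant follicle parts from the others), postdeviation (26 to 29 mm), preovulatory (30 to 35 mm) and impending ovulation (signs of imminent rupture, with no diameter given). No untreated or hormone-treated group enters, and predeviation serves as the reference in most comparisons below. Which mare gave which library is not in the labels; with 20 libraries from 19 mares some may share a mare, and the p-values speak only of the spread among these libraries. Vesicles were pelleted by ultracentrifugation, and small RNA was sequenced. In such bulk samples, fewer vesicles of a cell type and less of a miRNA per vesicle cannot be told apart.

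Values are scaled reads, that is, reads multiplied by a factor per library that the authors set. The libraries held between 27131 and 110130 miRNA reads, and 1 read was worth between 7.04 and 36.5 scaled reads. Preovulatory replicate 3, with 27131 reads, and impending ovulation replicate 2, with 29862, were the shallowest. Changes are on the log2(scaled reads + 1) scale with their standard error (SE). With 1 read worth at least 7.04 scaled reads, this scale enlarges the change of a miRNA that has values of 0. They were tested with limma over the whole table, with Benjamini-Hochberg adjustment within each comparison and an adjusted p under 0.05 as the threshold. Over all 264 miRNAs the median 95% interval of a difference between 2 stages reached 2.69 log2 units to either side. With 4 libraries a stage, a smaller change of a typical miRNA would thus have an interval that includes 0, before any adjustment.

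Together the 7 miRNAs held 0.693% ± 0.177 of the miRNA reads (SD, n = 20), between 0.330% and 1.07% in a library. The miR-146 pair made up 85.1% of their sum on average. By mean level, miR-146a ranked 33 in the table with 4497 scaled reads, miR-146b-5p ranked 49 with 1451 and miR-155 ranked 78 with 547.2. The other 4 were scarce, at ranks 115 to 138: miR-150 averaged 181.8 scaled reads, miR-142-5p 134.4, miR-142-3p 94.10 and miR-223 92.83. The defining miRNAs of blood cells were thus the least abundant members, each averaging at most 0.0180% of the reads. The NF-kB linked miRNAs, which other cells also make, were the most abundant. The spread within stages was smallest for the most abundant members. Its SD on the log2 scale was 0.36 for miR-146a, 0.64 for miR-146b-5p, 1.02 for miR-155, 0.91 for miR-150 and 1.32 for miR-223. It was 2.71 and 2.79 for miR-142-5p and miR-142-3p, against a median of 1.86 over all miRNAs tested.

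In scaled reads, miR-146b-5p was lower in the 3 later stages than at predeviation, by about 3 times. It was the member with the clearest difference between stages. The predeviation libraries held 3229, 3447, 2062 and 2798 scaled reads, from 219, 352, 75 and 147 reads. The deviation libraries held 2393, 1476, 1293 and 1209 scaled reads, and the postdeviation libraries 273, 1111, 1301 and 1057. All 4 postdeviation libraries lay below all 4 predeviation libraries, while deviation lay between them and overlapped both. The preovulatory libraries held 621, 1146, 1424 and 479 scaled reads, and those of impending ovulation 731, 826, 914 and 1232. Every library of these last stages also lay below every predeviation library.

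**Figure D1:**
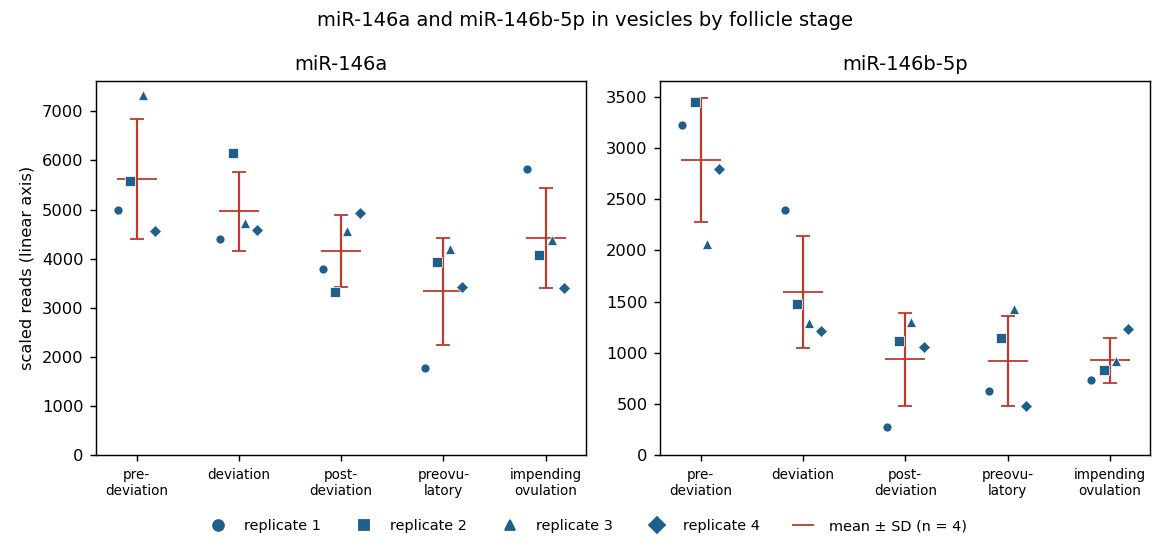
Scaled reads of miR-146a (left) and miR-146b-5p (right) in the 4 libraries of each follicle stage. Points are libraries and red marks are the stage mean with its SD. miR-146b-5p fell from a mean of 2884 at predeviation to between 917.4 and 935.7 in the 3 later stages, while the miR-146a points of all stages but preovulatory overlap those of predeviation.

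Stage means of miR-146b-5p were 2884 ± 610.7, 1593 ± 545.1, 935.7 ± 453.7, 917.4 ± 443.2 and 925.8 ± 217.4 scaled reads in stage order (SD, n = 4 each). Against predeviation, it fell by 1.81 on the log2 scale at postdeviation (SE 0.46, limma adjusted p = 0.0119), which is 3.52-fold. In preovulatory follicles it fell by 1.76 (SE 0.46, limma adjusted p = 0.0347), or 3.39-fold, and at impending ovulation it fell by 1.64 (SE 0.46, limma adjusted p = 0.0287), or 3.11-fold. These 3 comparisons share the predeviation libraries. The deviation libraries differed from predeviation by -0.88 (SE 0.46, limma adjusted p = 0.632), with 3 of 4 libraries below all predeviation libraries. Among postdeviation, preovulatory and impending ovulation no pair differed by more than 0.18 log2 units (limma adjusted p from 0.914 to 0.983). Along the stage order the level fell by 0.42 per step (SE 0.10, 95% interval -0.626 to -0.205, limma adjusted p = 0.0136), and the F test over the 5 stages gave a limma adjusted p of 0.0438. As a share of the library, which does not use the authors' factor, miR-146b-5p was 0.239%, 0.153%, 0.0981%, 0.0993% and 0.101% of miRNA reads in stage order.

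The trend of miR-146b-5p kept its call with each of the 20 libraries left out, at -0.446 to -0.389 per step. It also kept its call in 11 of 12 other settings. Scaling all libraries to equal totals gave -0.30 (limma adjusted p = 0.0614), in a range of 0.000580 to 0.0614 over all alternatives. Equal totals lost the other calls of miR-146b-5p too. The limma adjusted p was then 0.162 in the F test and 0.0537 at postdeviation (-1.39). It was 0.0951 in preovulatory follicles (-1.28) and 0.124 at impending ovulation (-1.19). The postdeviation call was lost without predeviation replicate 2 (-1.72, limma adjusted p = 0.0599) and without postdeviation replicate 1, the lowest library (-1.30, limma adjusted p = 0.0710). The preovulatory call was lost without predeviation replicate 1 or 2 (limma adjusted p = 0.0753 and 0.0812) and without preovulatory replicate 1 or 4 (0.0908 and 0.125). The call at impending ovulation was lost without predeviation replicate 1 or 2 (limma adjusted p = 0.0751 and 0.0996) and without impending ovulation replicate 1, 2 or 3 (0.0962, 0.0936 and 0.0562). The F test was more easily lost: it kept its call only without deviation replicate 2, postdeviation replicate 1, 3 or 4, preovulatory replicate 2 or 3, or impending ovulation replicate 4, and reached a limma adjusted p of 0.177 among the other 13.

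The summed levels of miRNAs of epithelium, of stroma, and of endothelium and platelets also had their highest stage means at predeviation. Within these lists, miR-141, miR-429, miR-205 and miR-126-5p had theirs elsewhere. The summed level of the 6 epithelial miRNAs (miR-200a, miR-200b, miR-200c, miR-141, miR-429 and miR-205) ranged from 4783 to 13890 scaled reads at predeviation, 2125 to 7992 at postdeviation, 1152 to 8651 in preovulatory follicles and 4104 to 9441 at impending ovulation. Of these 6, limma called 1 lower at postdeviation, where 6.06% of all miRNAs were called in either direction, and 2 lower in preovulatory follicles, where 4.92% were. At impending ovulation limma called 0 of the 6, where 5.68% of all were called. The sum of miR-143 and miR-145, miRNAs of smooth muscle and stroma, ranged from 12230 to 93390 scaled reads at predeviation and from 6461 to 23890 at postdeviation. It ranged from 9387 to 31360 in preovulatory follicles and from 4253 to 50510 at impending ovulation, with neither miRNA called in any of these comparisons. None of the 6 epithelial miRNAs and neither stromal one was at 0 in a whole stage. The part of these tissues in the fall of miR-146b-5p was not tested.

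miR-146a, the more abundant paralog, had its lowest mean in preovulatory follicles, a difference that did not pass the limma test. Predeviation libraries held 4983, 5591, 7339 and 4569 scaled reads and deviation libraries 4404, 6144, 4729 and 4574. Postdeviation libraries held 3785, 3311, 4562 and 4928. These 3 stages overlapped. Preovulatory libraries held 1773, 3939, 4198 and 3421 scaled reads, and those of impending ovulation 5831, 4075, 4380 and 3409. In scaled reads, all 4 preovulatory libraries lay below all 4 of predeviation and all 4 of deviation, whereas impending ovulation overlapped every other stage. As a share of miRNA reads, which does not use the authors' factor, the preovulatory libraries overlapped both of those stages. They held 0.2058%, 0.4115%, 0.4239% and 0.4416%, against 0.2569% in predeviation replicate 4 and 0.4028% in deviation replicate 3.

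Stage means of miR-146a were 5620 ± 1220, 4963 ± 798.2, 4147 ± 733.1, 3333 ± 1089 and 4424 ± 1022 scaled reads in stage order (SD, n = 4 each). As a share of miRNA reads the means were 0.4694%, 0.4646%, 0.4465%, 0.3707% and 0.4905%, highest at impending ovulation. Preovulatory and predeviation follicles differed by -0.80 log2 units (SE 0.30, 95% interval -1.43 to -0.177), which did not pass the test (limma adjusted p = 0.155). The same comparison passed under quantile normalization (-1.26, limma adjusted p = 0.0272), in a range of 0.0272 to 0.644 over the alternatives. The F test over the stages (limma adjusted p = 0.391) and the trend of -0.13 per step (SE 0.07, limma adjusted p = 0.253) did not pass either.

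The ratio of miR-146b-5p to miR-146a within a library does not depend on the scaling factor. At predeviation the 4 libraries gave 0.648, 0.616, 0.281 and 0.612, with a geometric mean of 0.512, and at deviation the geometric mean was 0.312. At postdeviation the libraries gave 0.0722, 0.335, 0.285 and 0.215, at a geometric mean of 0.196, and at impending ovulation 0.125, 0.203, 0.209 and 0.361, at 0.209. Predeviation replicate 3, with 0.281, fell among the later libraries, and the other predeviation libraries lay above all of them. The difference from predeviation was -1.38 log2 units at postdeviation (2-sided exact permutation p = 0.0857) and -1.29 at impending ovulation (2-sided exact permutation p = 0.0571), where 4 libraries against 4 allow no p below 0.0286. In preovulatory follicles the libraries gave 0.350, 0.291, 0.339 and 0.140, at a geometric mean of 0.264, which was not tested. With adjustment over the 4 ratio comparisons made, both exact permutation values were 0.171, but no outcome could have passed 0.05 after it, so whether the paralogs changed unequally was not settled. Their sequences are alike, and the counting settings are not given in the sources used here, so short reads could have been assigned to either.

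miR-155, which NF-kB and related signals induce in macrophages and lymphocytes, had its highest mean at impending ovulation, but the difference did not pass the limma test. Predeviation libraries held 457, 470, 275 and 247 scaled reads, from 31, 48, 10 and 13 reads. Deviation libraries held 171, 169, 363 and 201 scaled reads, and postdeviation libraries 130, 370, 65.9 and 269. No early library exceeded 470 scaled reads. Preovulatory libraries held 163, 485, 1497 and 338 scaled reads, and those of impending ovulation 2237, 1026, 1714 and 297, from 150, 36, 135 and 28 reads. Replicates 1 to 3 of impending ovulation lay above every library of the 3 early stages, and replicate 4 lay among them. In the preovulatory stage replicate 3 lay above them too, and replicate 2 just above.

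**Figure D2:**
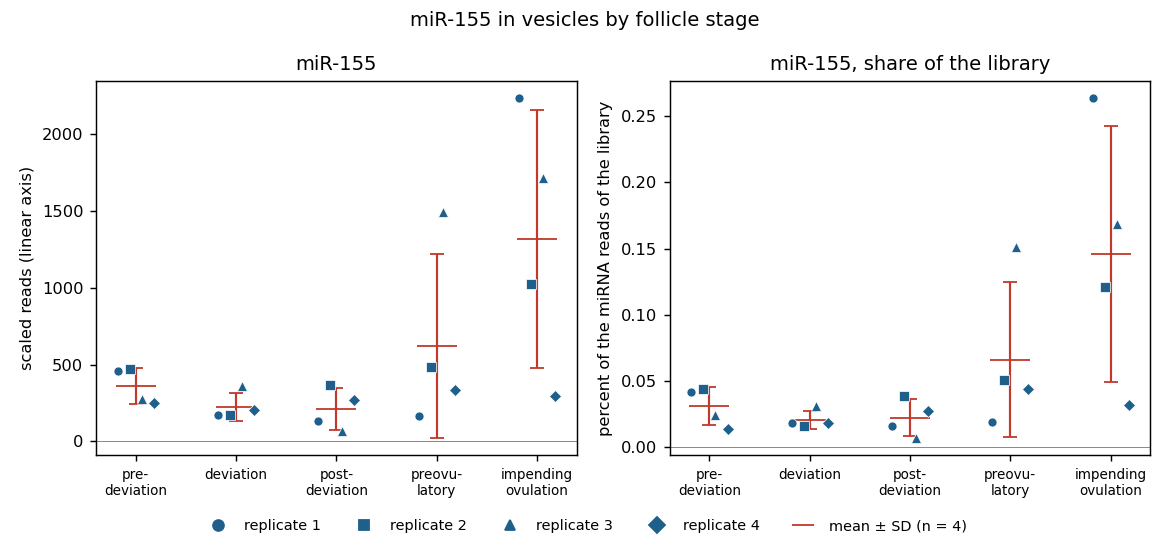
miR-155 in the 4 libraries of each follicle stage, as scaled reads (left) and as percent of the library's miRNA reads (right). Points are libraries and red marks the stage mean with its SD. Impending ovulation holds 3 libraries between 1026 and 2237 scaled reads and 1 at 297, within the range of the early stages.

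Stage means of miR-155 were 362.3 ± 117.5, 225.9 ± 92.33, 208.6 ± 137.1, 620.7 ± 598.6 and 1319 ± 842.3 scaled reads in stage order (SD, n = 4 each), from 102, 65, 63, 142 and 349 reads. As a share of miRNA reads the means were 0.0309%, 0.0207%, 0.0222%, 0.0661% and 0.146%. Its part of the 7 miRNAs' sum was 3.81%, 3.12% and 3.78% in the early stages, 9.99% in preovulatory follicles and 17.1% at impending ovulation. The difference between impending ovulation and postdeviation was 2.60 log2 units (SE 0.69, 95% interval 1.17 to 4.03, limma adjusted p = 0.275), a ratio of means of 6.32. Against deviation it was 2.27 (limma adjusted p = 0.110) and against predeviation 1.58 (SE 0.69, limma adjusted p = 0.219). The trend was 0.42 per step (SE 0.16, limma adjusted p = 0.114), and the F test over the stages gave a limma adjusted p of 0.105.

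The call for miR-155 turned on the tool, on the scaling and on 1 library. On whole reads, edgeR passed the F test (adjusted p = 0.0174), the trend (0.51 per step, adjusted p = 0.0240) and impending ovulation against postdeviation (2.61, adjusted p = 0.0444). DESeq2, which used a likelihood ratio test over the stages instead of the F test, passed these (adjusted p = 0.000734, 0.00384 and 0.00842). It also passed impending ovulation against deviation (2.62, adjusted p = 0.00205) and against predeviation (1.92, adjusted p = 0.0351). Of all 264 miRNAs, edgeR called 27 in the F test, 16 in the trend and 3 between impending ovulation and postdeviation. DESeq2 called 43 in the likelihood ratio test, 28 in the trend and 4 in that pair of stages. With equal library totals, limma passed the trend (0.54, adjusted p = 0.0257). Without impending ovulation replicate 4, limma passed the F test (adjusted p = 0.0236), the trend (0.54, adjusted p = 0.0256) and impending ovulation against postdeviation (3.20, adjusted p = 0.0288) and against deviation (2.88, adjusted p = 0.0307). Over all alternatives the adjusted p ranged from 0.000734 to 0.304 for the test over the stages. It ranged from 0.00842 to 0.502 for impending ovulation against postdeviation. Replicate 4 also stood apart in other tissues' miRNAs: miR-143 and miR-145 summed to 50510 scaled reads there, against 4253 to 6982 in the other impending ovulation libraries, and the 6 epithelial miRNAs to 9441 against 4104 to 6005. Preovulatory replicate 3, with the highest miR-155 of its stage, had the highest such sums of its stage too, 31360 and 8651. The part of these tissues in the miR-155 level was not tested.

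The miRNAs that mark blood cells showed no difference between stages that passed the test. Summed per library, miR-142-5p, miR-142-3p, miR-223 and miR-150 ranged from 266.5 to 825.6 scaled reads in predeviation libraries, 323.3 to 876.9 in those of deviation, 280.0 to 412.2 in those of postdeviation, 197.1 to 839.6 in preovulatory follicles and 199.5 to 863.3 at impending ovulation. All 5 ranges overlapped, that of impending ovulation included. Each of these miRNAs had a mean at impending ovulation within the range of the other stage means. Their F tests gave limma adjusted p from 0.662 to 0.986. With 130 to 273 reads of each in all, a difference between stages could have been missed.

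**Figure D3:**
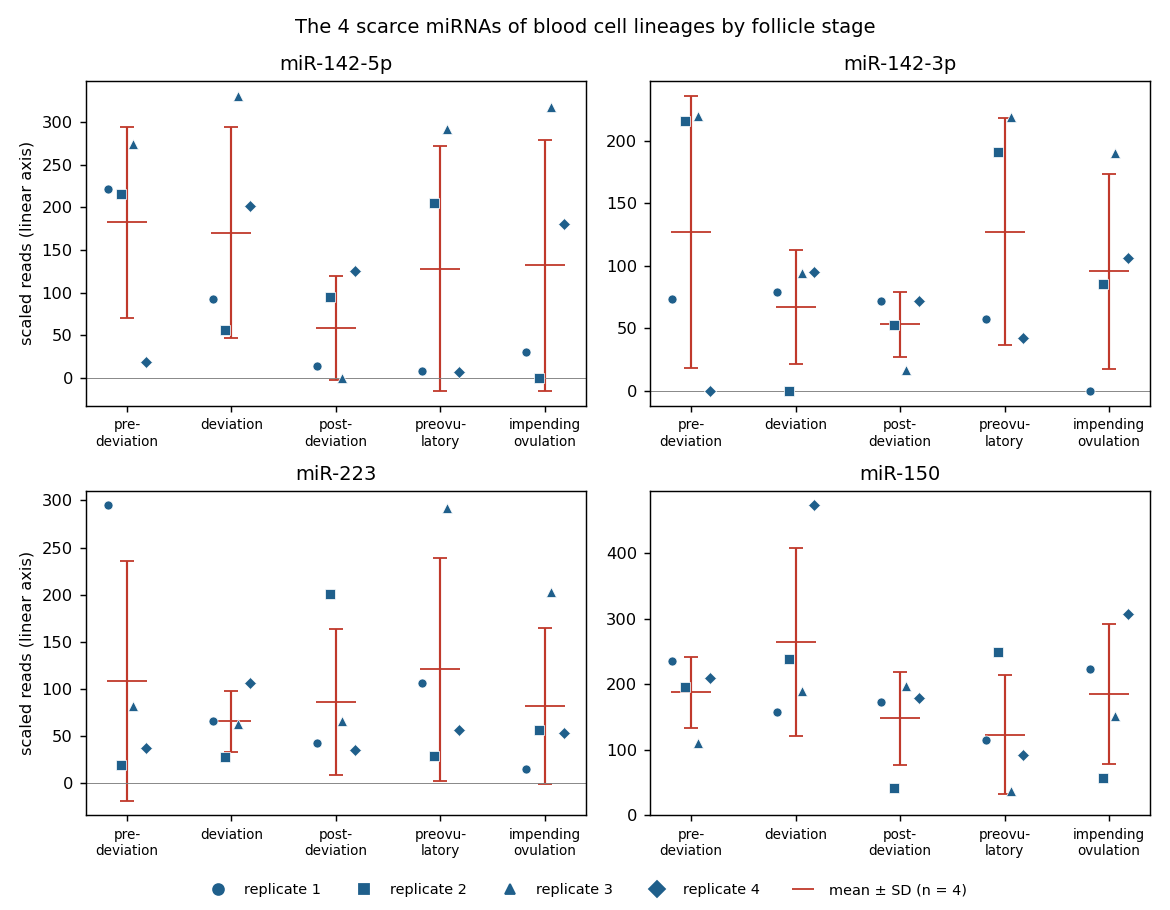
Scaled reads of miR-142-5p, miR-142-3p, miR-223 and miR-150 in the 4 libraries of each follicle stage. Points are libraries and red marks the stage mean with its SD. The stages overlap in every panel, and miR-142-5p and miR-142-3p reach 0 in 2 and 3 libraries.

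miR-142-5p and miR-142-3p come from the same hairpin. The predeviation libraries gave miR-142-5p at 221, 215, 275 and 19.0 scaled reads, those of deviation 92.0, 56.2, 331 and 201, those of postdeviation 14.4, 95.2, 0 and 125, preovulatory ones 8.17, 206, 292 and 7.04, and impending ovulation 29.8, 0, 317 and 181. For miR-142-3p the predeviation libraries gave 73.7, 215, 220 and 0, those of deviation 78.9, 0, 94.6 and 94.8, those of postdeviation 72.0, 52.9, 16.5 and 71.7, preovulatory ones 57.2, 191, 219 and 42.2, and impending ovulation 0, 85.5, 190 and 106. For both arms the libraries of every stage overlapped those of every other. A count of 0 allows up to 3 reads, which is 49.4 scaled reads for miR-142-5p in postdeviation replicate 3 and 57.1 for miR-142-3p in predeviation replicate 4, so these libraries may hold as much as some of their neighbours. In all, 182 reads of miR-142-5p and 130 of miR-142-3p were recovered.

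The largest stage difference of miR-142-5p from predeviation was at postdeviation, -2.62 log2 units (SE 1.72, limma adjusted p = 0.414), and the F tests gave limma adjusted p of 0.662 for miR-142-5p and 0.930 for miR-142-3p. Where both arms were above 0, the ratio of miR-142-5p to miR-142-3p had a geometric mean of 1.55 in 3 predeviation libraries, 2.05 in 3 of deviation, 0.857 in 3 of postdeviation, 0.430 in 4 preovulatory ones and 1.68 in 2 of impending ovulation. Preovulatory replicates 1 and 4 had ratios of 0.143 and 0.167, and replicates 2 and 3 of 1.08 and 1.33, so the preovulatory mean joined libraries in which a different arm led. With 2 or 3 libraries a stage, an exact permutation test of this ratio allows no p below 0.1, so it could not show a difference of postdeviation or impending ovulation from predeviation, and the preovulatory stage was not tested.

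miR-223, the miRNA of granulocytes and monocytes, was above 0 in all 20 libraries but rested on 130 reads. It stood at 295, 19.6, 82.5 and 38.1 scaled reads at predeviation, 65.7, 28.1, 63.1 and 107 at deviation, and 43.2, 201, 65.9 and 35.8 at postdeviation. Preovulatory libraries held 106, 29.4, 292 and 56.3, and those of impending ovulation 14.9, 57.0, 203 and 53.1. Every stage but deviation had 1 library above 200 scaled reads and 3 at or below 106. The F test gave a limma adjusted p of 0.986, and the trend was 0.00 per step. The high preovulatory library was replicate 3, the shallowest, where the value came from 8 reads.

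miR-150, the lymphocyte miRNA, was the most abundant of the scarce members, with 273 reads. It held 236, 196, 110 and 209 scaled reads at predeviation, 158, 239, 189 and 474 at deviation, and 173, 42.3, 198 and 179 at postdeviation. Preovulatory libraries held 114, 250, 36.5 and 91.5, and those of impending ovulation 224, 57.0, 152 and 308. The stages overlapped, and the value of 36.5 in preovulatory replicate 3 was 1 read. Stage means ran from 123.1 ± 90.63 scaled reads in preovulatory follicles to 265.0 ± 143.3 at deviation (SD, n = 4 each), and the F test gave a limma adjusted p of 0.706.

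In the limma fit with the authors' scaling, the only call in the 7 miRNAs was that of miR-146b-5p. It was 1 of 7 called by the F test, where 4.92% of all 264 miRNAs were called, and 1 of 7 by the trend, where 5.68% were called. Against predeviation it was 1 of 7 at postdeviation (6.06% of all), 1 of 7 in preovulatory follicles (4.92%) and 1 of 7 at impending ovulation (5.68%). Each count is the same single miRNA, and nothing is read from it about the group. limma called 0 of 7 between deviation and predeviation, where 0.379% of all miRNAs were called. There 0 of 7 had an unadjusted limma p under 0.05, beside 21 of all 264. edgeR and DESeq2 also called 0 of 7, beside 0 and 2 of all 264.

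In the comparisons without predeviation, limma called 0 of 7. Between impending ovulation and deviation 0.379% of all miRNAs were called, and 1 of 7 had an unadjusted limma p under 0.05 (38 of all 264). There edgeR called 0 of 7 (1 of all 264) and DESeq2 called 1 (8 of 264). Between impending ovulation and postdeviation 0.0% of all were called, and 1 of 7 had an unadjusted limma p under 0.05 (24 of all 264). There edgeR and DESeq2 each called 1, with 3 and 4 of all 264. In both, the member was miR-155. Between preovulatory and deviation follicles 0.0% were called, and 1 of 7, miR-146a, had an unadjusted limma p under 0.05 (30 of all 264). There edgeR and DESeq2 called 0 of 7, beside 0 and 16 of all 264. For postdeviation against deviation 0.0% of all were called, for preovulatory against postdeviation 0.0% and for impending ovulation against preovulatory 0.0%. In these last comparisons 0 of 7 had an unadjusted limma p under 0.05, beside 16, 28 and 24 of all 264 in that order. edgeR and DESeq2 called 0 of 7 in them, where edgeR called 0 of all 264 and DESeq2 3, 0 and 3.

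**Figure D4:**
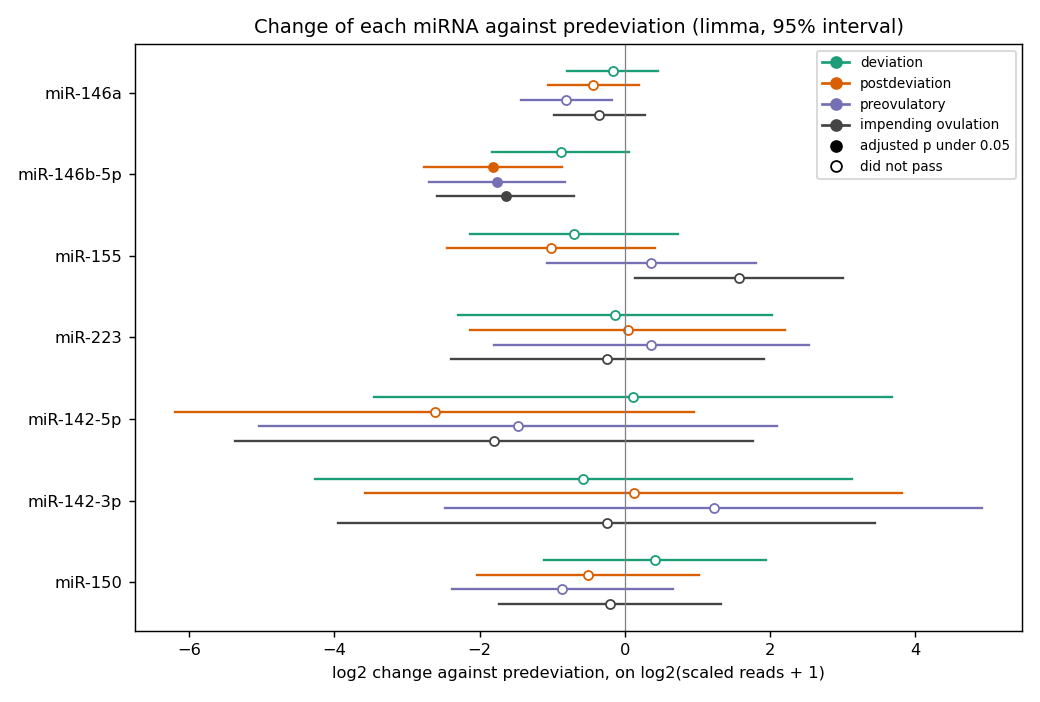
Change of the 7 miRNAs against predeviation in each later stage, as the difference in log2(scaled reads + 1) with its 95% interval from limma. Filled points have an adjusted p under 0.05. Filled points are those of miR-146b-5p at postdeviation, preovulatory and impending ovulation, and the intervals of miR-142-5p and miR-142-3p are the widest.

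The median change of the 7 miRNAs against predeviation was -0.50 log2 units at postdeviation, with 5 of 7 lower. Over all miRNAs tested it was -0.32, with 157 of 264 lower. In preovulatory follicles the median of the 7 was -0.80, with 4 of 7 lower, beside 0.04 over all, with 127 of 264 lower. At impending ovulation it was -0.25, with 6 of 7 lower, beside -0.39 over all, with 165 of 264 lower. These comparisons share the predeviation libraries. With each miRNA's stages ranked by mean level, no neighbouring pair passed the test in any of the 7 (limma adjusted p from 0.476 to 1.0). The libraries of all such neighbours overlapped. The ranking used the same values and set the closest means side by side, so it cannot show whether stages differ.

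Of 18 other miRNAs linked to NF-kB and inflammation in the table, 17 were tested, and limma called 1, near the share of 4.92% of all miRNAs called in that comparison. It was miR-187, which rose in preovulatory follicles against predeviation by 4.42 log2 units (SE 1.28, limma adjusted p = 0.0453) from 23.93 ± 36.01 to 136.3 ± 26.90 scaled reads (SD, n = 4 each), on 6 and 46 reads. This call was lost in 9 of 12 other settings, edgeR (2.47, adjusted p = 0.126) and DESeq2 (2.59, adjusted p = 0.0570) among them. It was kept without predeviation replicate 4, deviation replicate 2 or impending ovulation replicate 2, 3 or 4, and lost without any of the other 15 libraries, at 3.53 to 4.99 and a limma adjusted p up to 0.201 for miR-187. The most abundant of the 18 was miR-21, a widely expressed miRNA that inflammatory signals raise, at 194900 ± 113300 scaled reads at predeviation and 77130 ± 51210 at impending ovulation (SD, n = 4 each), which was not called in any comparison. miR-9a, which NF-kB induces as miR-9 in human monocytes, ran from 27.49 to 1808 scaled reads at predeviation and from 2220 to 28040 at impending ovulation, and although these libraries did not overlap, the difference of 3.83 log2 units (SE 1.97) did not pass (limma adjusted p = 0.304). miR-125a-5p, the other of the 3 most abundant, had stage means of 2209 to 5798 scaled reads and was not called either. Of the 4 other leukocyte lineage miRNAs, miR-181a, miR-181b, miR-342-3p and miR-342-5p, all were tested and none was called by limma in any comparison. Over all miRNAs 0.0% to 6.06% were called by comparison, so nothing is read from this about the list. miR-181a, known from developing T cells, was the most abundant of these 4, with stage means of 896.7 to 1507 scaled reads.

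The miRNAs known from red cells and from endothelium and platelets are given as values only, and the amount of blood in the fluid was not tested. miR-451, miR-144, miR-486-3p and miR-486-5p summed to means of 18080, 25610, 15680, 26870 and 17510 scaled reads in stage order, mostly miR-486-5p. miR-144 was at 0 in all libraries of the last 3 stages. The preovulatory mean rested on replicate 2, at 73090 scaled reads, against 8244, 18510 and 7643 in replicates 1, 3 and 4. miR-126-3p and miR-126-5p summed to 5268, 3407, 2474, 3573 and 2165. Neither list had a member called by limma in any comparison, where 0.0% to 6.06% of all miRNAs were called by comparison. The highest stage mean was preovulatory for the first list and predeviation for the second. The part of blood in the miR-155 level was not tested.

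The miRNAs whose levels over the 20 libraries ranked most like each member were listed by Spearman's rho among all miRNAs tested. All miRNAs of a library share its scaling factor and depth, so rho is a description. miR-142-5p was most like miR-21 (rho 0.858), miR-221 (0.788) and its own partner arm miR-142-3p (0.711), and miR-142-3p most like let-7f (0.756), miR-142-5p (0.711) and miR-21 (0.688). miR-146b-5p was most like miR-143 (0.764), miR-486-3p (0.650) and miR-200a (0.638). Its paralog miR-146a was not among these, at a rho of 0.553. miR-146a was most like miR-148a (0.588), miR-222 (0.561) and miR-221 (0.556), and miR-155 most like let-7f (0.624), let-7a (0.600) and miR-92b (0.574). miR-150 was most like miR-145 (0.684), and miR-223 most like miR-872 (0.613).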

How the data were processed

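The authors deposited a table of miRNA values named CPM, in which the unit is a scaled read signal: columns sum to 774632 to 1778185, not to a common total. The submitters' processing notes name the build EquCab3.0 and the tools DESeq2, Bowtie2 2.2.2 and bcl2fastq, but neither role nor order; libraries were TruSeq Small RNA, per the labels' protocols. The factor that multiplies each library's reads has no stated origin in the sources used here, and a different factor would move every value of its library.

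Tests were planned for CPM and kept, as they also suit a scaled signal. Dividing by the smallest value above 0 in a column gave whole reads for 100% of values (tolerance 1e-06). Postdeviation replicate 2 had 93 low values, under the 100 needed for the separate check of this step, and was kept in the count tests. In all, 1457859 reads were recovered. The 95% intervals of changes are limma's, from the spread among libraries. The limit of 3 reads for a value of 0 covers counting error only, since reads have no molecular identifiers.

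Values were taken as log2(value + 1), with miRNAs filtered to those reaching 10 scaled reads in 4 or more libraries, and fitted over all 20 libraries with limma 3.58.1 (R 4.3.3) with an intensity trend. Tests were the F test over stages, the trend over stage order (1 to 5) and all pairs of stages. edgeR 4.0.16 and DESeq2 1.42.0 on recovered reads, other scalings, pseudocounts and filters, a replicate block and leaving out libraries were alternatives. Over the 5 stages, DESeq2 used a likelihood ratio test in place of the F test. Scripts were tested on simulated data. Replicate numbers do not pair the libraries.

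All 7 miRNAs are named in every comparison; of the other lists, members called or else the 3 most abundant are named, and the 3 miRNAs of highest rho for a member. The members and lists were chosen with earlier results of these data known. Leaving out single libraries for the ratio, and the alternatives for miR-187, were added after seeing the data.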

Additional observations from a re-analysis of the deposited data

Results flagged for a closer look

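Of the 35 groups of 4 libraries examined (7 miRNAs in 5 stages), 3 held a library far from the others, by the gap to its nearest neighbour over the group's range against Dixon's critical value for 4. Chance flags about 1 in 20 groups. miR-155 in deviation replicate 3 was high, at 363 scaled reads against 169 to 201 in the other deviation libraries. miR-142-3p in deviation replicate 2 was low, at 0 against 78.9 to 94.8. miR-150 in postdeviation replicate 2 was low, at 42.3 scaled reads against 173 to 198.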

How the results depend on the processing

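Counts of the 7 miRNAs past the threshold were 1 for the F test, the trend and postdeviation, preovulatory and impending ovulation against predeviation, and 0 in the other comparisons. The F test count was 0 with no filter, quantile normalization, equal library totals, no intensity trend and the replicate block. It was 2 with edgeR, and 2 in the likelihood ratio test of DESeq2. The trend count was 2 with edgeR and DESeq2. Postdeviation gave 0 with quantile normalization, equal totals or only the 2 stages compared. Preovulatory gave 2 with quantile normalization and 0 with equal totals, no intensity trend, only the 2 stages and the replicate block. Impending ovulation gave 0 with quantile normalization, equal totals, no intensity trend and without both libraries under 40000 reads, and 2 with DESeq2. DESeq2 gave 1 for impending ovulation against deviation and against postdeviation, edgeR 1 for the latter. Leaving out single libraries, the counts ranged from 0 to 2 (F test), 1 to 2 (trend) and 0 to 1 (the 3 stages against predeviation, and impending ovulation against deviation and postdeviation). With equal totals the trend count of 1 was miR-155 (0.54, adjusted p = 0.0257), not miR-146b-5p. The cause was not tested.

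Direction changed for members near no change, with no call at stake. For miR-223 at postdeviation the change was -0.00966 with pseudocount 10, -0.13 with edgeR and -0.15 with DESeq2, and for miR-142-3p -0.49, -1.24 and -1.16. At impending ovulation equal totals gave 0.0991 for miR-146a, 0.194 for miR-223 and 0.241 for miR-150, which was also 0.141 with edgeR, 0.0909 with DESeq2 and 0.276 without both shallow libraries; there the miR-223 trend was -0.0588. Leaving out single libraries, trends ranged from -0.121 to 0.146 (miR-223) and -0.234 to 0.475 (miR-142-3p). Changes at postdeviation ranged from -0.529 to 0.753 (miR-223), -1.69 to 0.903 (miR-142-3p) and -0.741 to 0.0177 (miR-150), and at impending ovulation from -0.858 to 0.475, -2.07 to 1.48 and -0.528 to 0.276.

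Same-numbered libraries did not deviate together (median r -0.0388 over 40 pairs, 4 over 0.1). With the replicate block miR-146b-5p gave limma adjusted p of 0.0770 in the F test and 0.0596 in preovulatory follicles, and kept its other calls. Scaling moved the median of all miRNAs at postdeviation from -0.32 to 0.02 (equal totals) and -0.02 (quantile), and at impending ovulation from -0.39 to -0.00292 and -0.20. Over all miRNAs the F test called 13 by limma, 2 by limma with no intensity trend and 27 by edgeR. The likelihood ratio test of DESeq2 called 43. The trend called 15 by limma and 28 by DESeq2. Against predeviation, impending ovulation gave 15, and 24 by DESeq2, 4 with only the 2 stages and 7 without both shallow libraries; preovulatory gave 13, and 5 with no intensity trend or the block and 2 with only the 2 stages. DESeq2 called 16 between preovulatory and deviation follicles and 8 between impending ovulation and deviation, where limma called 0 and 1. At this depth the 130 to 273 reads of each scarce member limit what can be seen.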
